A study of Saccharomyces cerevisiae with 8 samples.

Results

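The genes of the RNA polymerase subunits of budding yeast were followed by their nucleosomes, the units of packed DNA that lie along every chromosome. The 31 genes of the subunits of RNA polymerases I, II and III were taken by name from the 6002 nuclear protein-coding genes, and all 31 were found. The window of each gene ran from 600 bp upstream of its coding sequence to the end of that sequence. Of the 31 genes, 7 encode subunits of polymerase I only, 2 encode subunits shared by polymerases I and III, 5 encode subunits shared by all 3 enzymes, 7 encode subunits of polymerase II only and 10 encode subunits of polymerase III only.

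RNA polymerase I makes the large ribosomal RNA precursor, RNA polymerase II makes messenger RNAs, and RNA polymerase III makes transfer RNAs and other short RNAs. Each enzyme has a pair of large subunits that form the catalytic cleft, an assembly pair beside them, a stalk and a set of small subunits shared with the other enzymes. All of these genes are themselves read by RNA polymerase II, and in yeast such genes usually carry a nucleosome-depleted promoter followed by a regular row of nucleosomes that starts with the +1 nucleosome.

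The data were 8 libraries of micrococcal nuclease sequencing (MNase-seq), in which DNA between nucleosomes is digested and the protected fragments are sequenced. The series asked how gene length and transcription affect the periodic order of nucleosomes. The phenanthroline group was exposed for 30 min, at 30 °C, to 100 µg/ml of 1,10-phenanthroline, and gave 4 libraries, 1 for each strain label. This chelator binds metal ions and is applied to yeast to stop transcription. The untreated group also gave 4 libraries, 1 for each strain label. Both groups shared the background labelled cell line PPY1, which is MATa with the deletion alleles his3Δ0, leu2Δ0, met15Δ0 and ura3Δ0 and the disruption bar1::leu2, and both were grown in YPD, held in G1 and digested as semi-intact cells. In both groups every strain also carried the 81 bp insert in a pair of genes, which the labels give as CKB2 and DGK1 for strain 1, PPT1 and SLM3 for strain 2, TRP4 and PAN5 for strain 3, and UBX5 and BSP1 for strain 4. There was 1 library for each strain label and treatment, so the 4 libraries of a group differ in strain. The inserts found in the coordinates, given below, also differ between the 4 libraries of a group. Whether the phenanthroline and untreated libraries of a strain came from separate cultures is not stated in the labels. The p-values measure only the spread between these libraries, in which strain, culture and technical handling cannot be told apart.

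The strain labels and the coordinates did not match. Steps of 78 to 83 bp in the dyad coordinates, as an insert would give, were found for 16 of 64 pairs of library and insertion site, and 0 of them lay in the strain labelled with that site. The steps at CKB2 and DGK1 were in the libraries labelled strain 2, those at PPT1 and SLM3 in strain 3, those at TRP4 and PAN5 in strain 4, and those at UBX5 and BSP1 in strain 1, in both treatments. Libraries are therefore named by their label, and the step was subtracted beyond each site. The step bears on 13 of the 31 genes, while the other 18 lie before every site on their chromosome. After subtraction the largest offset left between libraries of the same treatment near any of the 31 genes was 6 bp. Offsets between phenanthroline and untreated libraries were not measured. No call lay in URA3 or MET17 (the gene also called MET15) in any library, HIS3 held 2 to 3 calls, LEU2 held 8 to 11 and BAR1, which the labels give as disrupted, held 11 to 13. Phenanthroline libraries held 74441 to 75085 calls and untreated libraries 72648 to 73454. The score of a call, from 0 to 1, is higher where fragments are more tightly placed and more numerous. Cells were pooled, so fewer cells with a nucleosome and less precise placing in every cell cannot be told apart in a combined score.

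Of the 376 nucleosomes placed in the windows of the 31 genes, 312 were called in all 8 libraries and 0 were called in all 4 libraries of 1 treatment and none of the other. Of the 64 not called in all 8 libraries, 53 lay in the 6 genes longer than 3000 bp. Of the 64, 36 were called in more phenanthroline than untreated libraries, against 19 called in more untreated libraries. Over the whole genome 60146 of 73026 nucleosomes were called in all 8 libraries. Phenanthroline libraries held more calls there too, with a mean of 74714.8 against 72971.5 in untreated libraries. The split of the other nucleosomes between the treatments was not counted, so the 36 and 19 cannot be read as particular to the polymerase genes. The 64 include a position 359 bp upstream of RPA14 to which no library had a call assigned. The windows held 384.75 ± 4.99 calls per phenanthroline library and 377.5 ± 3.42 calls per untreated library (SD, n = 4 each). The share of these calls in the well-positioned class was 54.3% ± 0.991 in phenanthroline libraries and 56.4% ± 1.13 in untreated libraries, against 49.5% ± 1.73 and 55.0% ± 1.79 of all calls in phenanthroline and untreated libraries. The polymerase genes thus showed a smaller gap between the treatments in this share than all calls did, a difference that was not tested.

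At 21 of the 31 genes the nearest upstream gene was divergent, and the distance to it was 234 to 883 bp with a median of 476 bp. At the other 10 genes the distance to the upstream gene was 348 to 2791 bp with a median of 829 bp. RPA190 and RPA43, which encode the largest subunit and a stalk subunit of polymerase I, are divergent neighbours on chromosome XV with 804 bp between them. The depleted region was measured from the -1 dyad to the +1 dyad. Its median was 291.25 bp in phenanthroline libraries and 285 bp in untreated libraries over the 31 genes, against 268.25 bp and 257.5 bp over 5263 genes in phenanthroline and untreated libraries. The widest was at RPA14, a stalk subunit of polymerase I, with 494.5 ± 7.94 bp in phenanthroline libraries and 483 ± 10.1 bp in untreated libraries. At 3 genes the measured pair was not the widest gap, because the +1 nucleosome was looked for no further than 150 bp upstream of the start. At RPB2 the measured gap was 164 ± 2.45 bp in phenanthroline libraries and 170.75 ± 3.30 bp in untreated libraries. A wider one lay next to it, between dyads at -536 and -218 bp, of 319.75 ± 7.80 bp in phenanthroline libraries and 317.25 ± 0.957 bp in untreated libraries (SD, n = 4 each). At RPO31 the measured gap was 179 ± 7.85 and 171.25 ± 2.99 bp, and a wider one between dyads at -478 and -212 bp was 267 ± 4.97 and 265.75 ± 4.43 bp, in phenanthroline and untreated libraries. RPB11 had a wider gap between dyads at -596 and -264 bp, of 327 to 352 bp in phenanthroline libraries and 319.5 to 349 bp in untreated libraries. These wider gaps were not tested, and the widths, +1 positions and distances from +1 to last of the 3 genes rest on the measured pair. In 4 further genes, RPA14, RPB3, RPB4 and RPC17, nucleosomes called in some libraries only lay inside the measured gap.

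**Figure D1:**
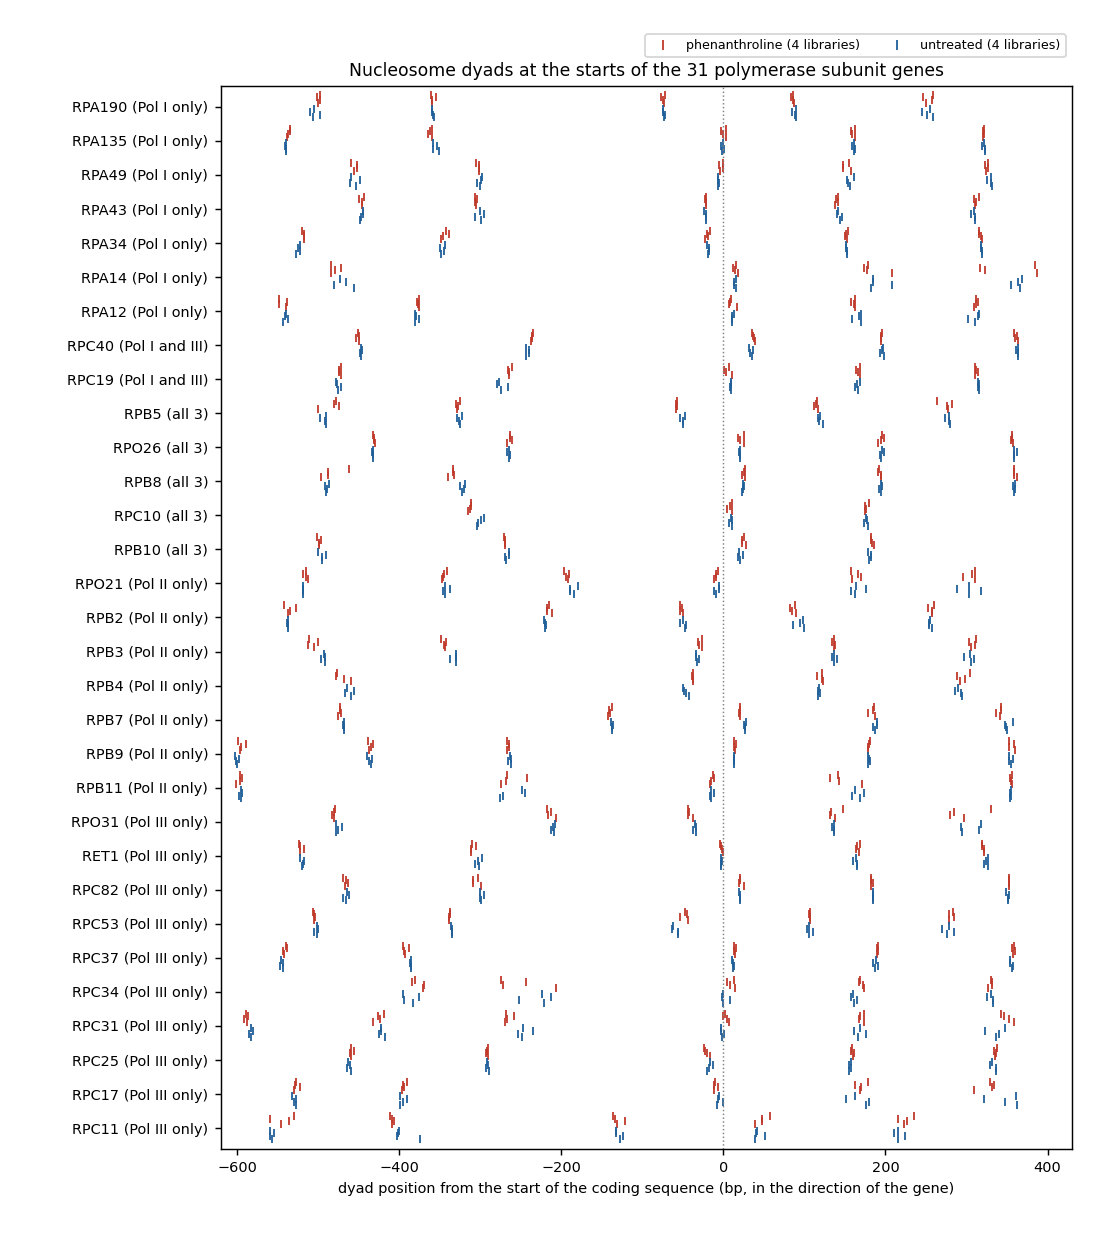
Dyad positions of nucleosomes called in all 8 libraries around the starts of the 31 genes, in bp from the start of the coding sequence; red ticks are the 4 phenanthroline libraries and blue ticks below them the 4 untreated libraries. The +1 nucleosome differed by -7.25 bp at RPB5 to 12 bp at RPC53, and at RPB2, RPO31 and RPB11 a gap wider than that beside the +1 nucleosome lies further upstream.

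Phenanthroline went with a wider depleted region at 9 of the 31 genes, a lower promoter score at 4 of 29 genes and a higher gene-body score at 2 of 26 genes, with limma across all genes and a Benjamini-Hochberg adjusted p under 0.05. The depleted region was narrower at 1 gene, RPC19, and the share of all 5263 genes called was 26%, with 23.9% wider and 2.11% narrower. Promoter scores, the mean over calls in the 600 bp upstream, were higher at 1 gene, RPO31, against 16.9% of 5451 genes called, 1.6% higher and 15.3% lower. Gene-body scores, the mean over calls in the coding sequence, were lower at 0 of 26 genes by limma, with 2 genes lower at an unadjusted p under 0.05, against 6.81% of 5094 genes called, 3.16% higher and 3.65% lower. The +1 nucleosome lay further downstream at 2 genes (RPC53 and RPB4) and further upstream at 1 (RPB5), against 19.7% of 5577 genes called, 17.8% downstream and 1.95% upstream. The distance from the +1 to the last nucleosome of the gene was shorter at 1 of 27 genes, RPB2, against 15.3% of 4756 genes called, 0.757% longer and 14.5% shorter.

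The medians over the 31 genes were close to those over all genes for widths and promoters and smaller for +1 positions. The median difference, phenanthroline minus untreated, was 7 bp in width for both sets. It was -0.0312 in promoter score over 29 of the polymerase genes and -0.0296 over all genes, and -0.00248 in gene-body score over 26 of them and -0.00597 over all genes. For the +1 position it was 0.75 bp downstream over the 31 genes and 3.5 bp over all genes. For the distance from +1 to last it was -2 bp over 27 of the polymerase genes and -9.25 bp over all genes. That distance was itself shorter in the polymerase genes, with an untreated median of 704.25 bp against 1198.75 bp over all genes. The differences were not scaled by it. None of these 21 gene-level calls held in each of the 4 fits that left out 1 strain label: 0 held without strain label 1, 5 without label 2, 12 without label 3 and 0 without label 4. The fits without label 1 and without label 4 also lost most calls over all genes. For widths, 1256 wider and 111 narrower genes became 13 and 2 without label 1, and 24 and 3 without label 4. Without label 2 they were 150 and 18, and without label 3 they were 1527 and 120. The labels pair the libraries by strain, and with strain label as a block 1 of the 21 held, the gene-body score of RPA12.

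With scores centred on the library median, gene-body calls over all genes split into 527 higher and 100 lower, 84.1% higher in place of 46.4%, and promoter calls into 141 higher and 357 lower, 28.3% higher in place of 9.47%. In that fit 4 polymerase genes were higher in gene-body score and 0 lower, with 100 lower over all genes. In promoter score 1 polymerase gene was higher and 0 were lower, so the 4 lower promoter scores were called on the deposited scale and not on the centred one.

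Over all 31 windows, 15 of 312 nucleosomes were called higher and 7 lower, 7.05% in all, against 8.38% of 60146 nucleosomes, 2.87% higher and 5.51% lower. In coding sequences 14 of 236 were higher and 2 lower, against 6.89% of 47486 coding nucleosomes called, 3.4% higher and 3.49% lower. In the upstream windows 1 of 76 was higher and 5 were lower, against 10.2% of 13321 upstream nucleosomes called, 1.13% higher and 9.1% lower. Leaving out the libraries of strain label 1 kept 1 of the 22 calls, leaving out label 2 kept 11, and leaving out label 3 or label 4 kept 5 each, while the strain block kept 13. Over all nucleosomes, 1726 higher and 3312 lower became 182 and 501 without label 1, and 1295 and 2322 without label 2. They became 828 and 1813 without label 3, and 425 and 1061 without label 4. Dyads were called displaced at 3 of 312 nucleosomes, in RPB2, RPC53 and RPB8, against 1.28% of 60146. With the strain block limma called 0 of 60146, with 13464 at an unadjusted p under 0.05.

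**Figure D2:**
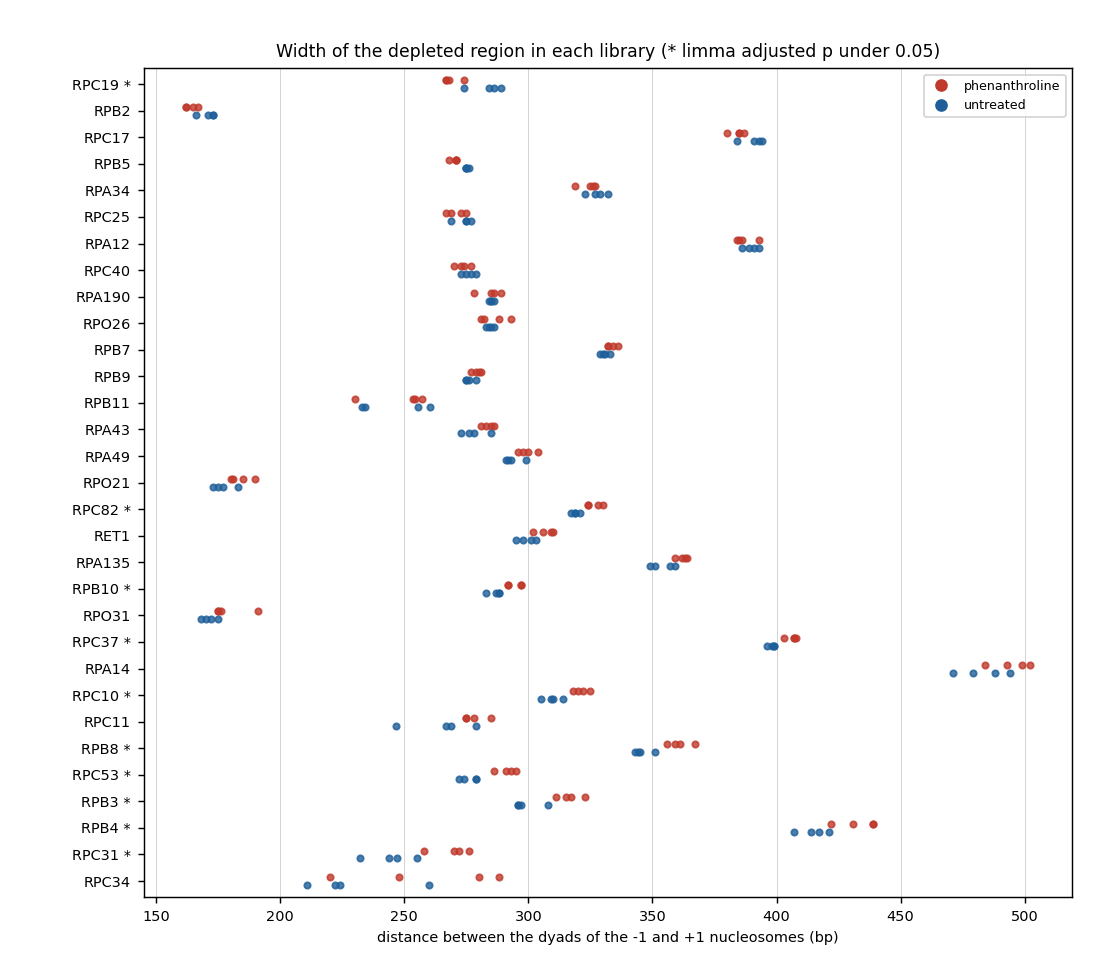
Width of the depleted region in bp, as the distance between the -1 and +1 dyads, for each of the 31 genes, with 4 phenanthroline libraries (red, upper row of each gene) and 4 untreated libraries (blue, lower row); genes run from the most narrowed at the top to the most widened at the bottom. Of the 10 starred genes, RPC19 was narrower and 9 were wider, by 7.5 bp at RPC82 to 24.5 bp at RPC31.

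Among the genes of polymerase I only, RPA12 (YJR063W, chromosome X, 555195 to 555572), whose subunit takes part in RNA cleavage by the enzyme, showed the largest rise in gene-body score. Its gene-body score was 0.798, 0.873, 0.786 and 0.803 in the phenanthroline libraries of strain labels 1 to 4, against 0.707, 0.694, 0.688 and 0.672 in the untreated ones. Every phenanthroline library lay above every untreated library. The difference was 0.125 ± 0.0213 (SE), with a limma adjusted p of 0.0138, which was 0.0228 with the strain block, 0.101 without strain label 1 and 0.0787 without strain label 4. The gene held 3 calls in the coding sequence of every library, the fewest allowed. Of its 3 coding nucleosomes, 2 had a positive score difference and 1 a negative one. Within the gene, the nucleosome centred 164 bp from the start rose most, with scores of 0.828, 0.894, 0.846 and 0.791 in phenanthroline libraries against 0.638, 0.649, 0.547 and 0.584 in untreated libraries. Limma gave an adjusted p of 0.00606 over 60146 nucleosomes, and 0.0518 without strain label 1. The height component of the score, which follows coverage, was 0.826 ± 0.0572 in phenanthroline libraries and 0.586 ± 0.0241 in untreated libraries (limma adjusted p = 0.00301). The width component, which follows how tightly fragments are placed, was 0.804 ± 0.0511 in phenanthroline libraries and 0.795 ± 0.0282 in untreated libraries (limma adjusted p = 0.849).

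Upstream of RPA12 the scores moved the other way. Its promoter score was 0.864, 0.825, 0.829 and 0.854 in phenanthroline libraries against 0.914, 0.888, 0.927 and 0.921 in untreated libraries, with no overlap. Its limma adjusted p was 0.0249, against 0.0651 with the strain block, and 0.0961, 0.0975 and 0.110 without strain labels 1, 3 and 4. The nucleosome that was called lower there, 542 bp upstream, lies inside the divergent gene NTA1, whose coding sequence begins 345 bp away. It had 0.791 ± 0.0457 in phenanthroline libraries and 0.906 ± 0.0318 in untreated libraries. The adjusted p from limma was 0.0478, 0.0710 with the block, and 0.0781 to 0.176 over the 4 fits without a strain label. The other nucleosome of this upstream window, at -378 bp, lies inside NTA1 as well. The lower promoter score of RPA12 was thus measured within the coding sequence of NTA1, while the gene-body score of RPA12 rose.

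RPA190 (YOR341W, chromosome XV, 960987 to 965981), the largest subunit of polymerase I, also rose in gene-body score. It had 0.562, 0.583, 0.581 and 0.587 in phenanthroline libraries against 0.517, 0.486, 0.526 and 0.526 in untreated libraries, again with no overlap between the groups. The limma adjusted p was 0.0451, and it was 0.0618 with the median in place of the mean of the calls, 0.0583 with the strain block and 0.170, 0.0935, 0.106 and 0.160 without strain labels 1 to 4. RPA135 (chromosome XVI, 577585 to 581196), the other large subunit, had 0.651, 0.585, 0.667 and 0.631 in phenanthroline libraries against 0.543, 0.511, 0.613 and 0.581 in untreated libraries. Each strain label was higher with phenanthroline but the groups overlapped, and the limma adjusted p was 0.113, or 0.0483 with the strain block. In both genes the height component was called, at 0.631 ± 0.0117 against 0.513 ± 0.0520 for RPA190 (limma adjusted p = 0.0211) and at 0.684 ± 0.0508 against 0.542 ± 0.0703 for RPA135 (limma adjusted p = 0.0369), in phenanthroline against untreated libraries. Over all genes the height component was called higher at 8.93% and lower at 5.48%, and the width component higher at 0.569% and lower at 3.44%.

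Neither gene was called at the promoter. RPA135 had a promoter score of 0.855 ± 0.0482 in phenanthroline libraries and 0.916 ± 0.00284 in untreated libraries, with no overlap (limma adjusted p = 0.117). Its depleted region was 362 ± 2.16 bp in phenanthroline libraries and 354 ± 4.76 bp in untreated libraries, wider for each strain label (limma adjusted p = 0.0702). The +1 nucleosome of RPA190 lay at -72, -77, -74 and -73 bp in phenanthroline libraries and -75, -75, -72 and -73 bp in untreated libraries. Its depleted region was 284.5 ± 4.65 and 285 ± 0.816 bp wide in phenanthroline and untreated libraries. The promoter score of RPA190 was 0.914 ± 0.0183 in phenanthroline libraries and 0.889 ± 0.0223 in untreated libraries (limma adjusted p = 0.365). RPA43 shares 2 of these upstream nucleosomes, both called in all 8 libraries. Its promoter score was 0.928 ± 0.0226 and 0.891 ± 0.0241 in phenanthroline and untreated libraries (limma adjusted p = 0.216). The difference of 0.0370 at RPA43 was the most positive in promoter score after that of RPO31 and did not pass the threshold.

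Of the other polymerase I genes, RPA49 was called at its promoter. RPA49 (chromosome XIV, 181361 to 182608), whose subunit pairs with that of RPA34 and acts in initiation and elongation, had a promoter score of 0.817, 0.868, 0.862 and 0.828 in phenanthroline libraries against 0.909, 0.918, 0.911 and 0.895 in untreated libraries, with no overlap. The limma adjusted p was 0.0349, and it was 0.0758 with the strain block and 0.184, 0.0649, 0.0747 and 0.131 without strain labels 1 to 4. The nucleosome called lower there, 455 bp upstream, lies inside the divergent gene CRS1. Its score was 0.698 ± 0.0548 in phenanthroline libraries against 0.884 ± 0.0501 in untreated libraries. With limma the adjusted p was 0.0197, 0.0416 with the block, 0.112 without strain label 1, 0.0716 without label 3 and 0.0588 without label 4. RPA49 had its +1 and last dyads 1219 ± 13.8 bp apart in phenanthroline libraries and 1240 ± 14.5 bp apart in untreated libraries, the most negative difference after that of RPB2 (limma adjusted p = 0.121). RPA34, RPA43 and RPA14 passed the threshold in no gene-level test. RPA34 had its smallest adjusted p in gene-body score, which was 0.885, 0.882, 0.894 and 0.846 in phenanthroline libraries against 0.926, 0.912, 0.907 and 0.929 in untreated libraries, without overlap (limma adjusted p = 0.158). The depleted region passed it at 0 of the 7 polymerase I genes by limma, with 1 of the 7 at an unadjusted p under 0.05.

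**Figure D3:**
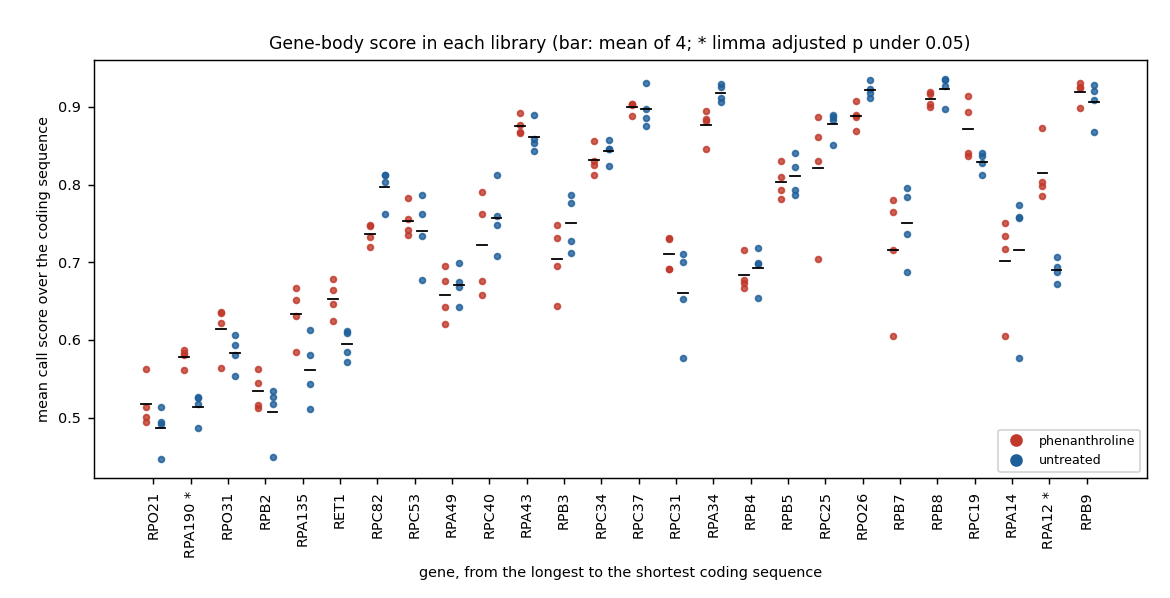
Mean score of the calls in the coding sequence (0 to 1) for the 26 genes with at least 3 calls in every library, from the longest gene on the left to the shortest on the right; each dot is a library, the bars are means of 4, and phenanthroline (red) stands left of untreated (blue). The 6 longest genes have the lowest means and a higher mean with phenanthroline, and RPA190 and RPA12 are the 2 starred genes.

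The subunits shared by polymerases I and III, RPC40 and RPC19, form the assembly pair of both enzymes. RPC19 (YNL113W, chromosome XIV, 412771 to 413199) was the gene with a narrower depleted region, at 268, 267, 267 and 274 bp in the phenanthroline libraries of strain labels 1 to 4 against 286, 289, 274 and 284 bp in the untreated ones. The groups met at 274 bp, and each strain label except 3 was at least 10 bp narrower. The limma adjusted p was 0.0304, and it was 0.0631 with the strain block and 0.162, 0.118 and 0.116 without strain labels 1, 2 and 4. The height component of the RPC19 gene body was 0.936 ± 0.0467 in phenanthroline libraries and 0.825 ± 0.0229 in untreated libraries (limma adjusted p = 0.0251). Its combined gene-body score was 0.871 ± 0.0386 and 0.830 ± 0.0123 in phenanthroline and untreated libraries (limma adjusted p = 0.242). RPC40 passed the threshold in no gene-level test; its distance from +1 to last differed by 18.25 bp, the most positive difference, with a limma adjusted p of 0.252.

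Of the subunits shared by all 3 enzymes, RPB8, RPC10 and RPB10 had a wider depleted region, RPB5 changed at its promoter and RPO26 was called in no gene-level test, with its smallest limma adjusted p, 0.176, for the distance from +1 to last. RPB8 (chromosome XV, 760825 to 761265) had 361, 359, 356 and 367 bp in phenanthroline libraries against 343, 351, 344 and 345 bp in untreated libraries. RPC10 (chromosome VIII, 387233 to 387445) had 322, 320, 318 and 325 bp in phenanthroline libraries against 305, 309, 310 and 314 bp in untreated libraries. RPB10 (chromosome XV, 738320 to 738532) had 297, 292, 292 and 297 bp in phenanthroline libraries against 283, 288, 287 and 288 bp in untreated libraries. At all 3 genes every phenanthroline library was wider than every untreated library. The widening was 15 bp at RPB8, 11.75 bp at RPC10 and 8 bp at RPB10, with limma adjusted p of 0.0196, 0.0250 and 0.0433. Without strain label 1 these were 0.131, 0.141 and 0.221, and without label 2 they were 0.0563, 0.0914 and 0.0968. Without label 4 they were 0.110, 0.0998 and 0.155, and without label 3 RPB10 had 0.0576. At RPB8 it lay on the upstream side, where the -1 dyad sat 13.75 bp further from the gene (limma adjusted p = 0.0471, 0.119 with the block, and 0.269, 0.0610, 0.0974 and 0.213 without strain labels 1 to 4). The +1 dyad was at 25.5 ± 1.91 bp in phenanthroline libraries and 24.25 ± 1.26 bp in untreated libraries.

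RPB5 (YBR154C, chromosome II, 548362 to 549009) had its +1 nucleosome further upstream, where most called genes had it further downstream. The +1 dyad lay at -57, -59, -57 and -58 bp in phenanthroline libraries against -48, -54, -50 and -50 bp in untreated libraries, so that it sat 7.25 bp further upstream with phenanthroline, with no overlap. The limma adjusted p was 0.0224, and it was 0.0559 with the strain block, 0.138 without strain label 1 and 0.125 without label 4. Its promoter score was 0.774, 0.851, 0.813 and 0.754 in phenanthroline libraries against 0.893, 0.878, 0.892 and 0.885 in untreated libraries. In limma the adjusted p was 0.0299, against 0.0689 with the block, and 0.173, 0.0816 and 0.128 without strain labels 1, 3 and 4. The nucleosome 488 bp upstream, which lies between genes, had 0.579 ± 0.109 in phenanthroline libraries and 0.835 ± 0.0249 in untreated libraries. Limma gave an adjusted p of 0.0215, against 0.127, 0.0937 and 0.0524 without strain labels 1, 3 and 4. The nucleosome near the end of RPB10, at 182 bp, was lower, at 0.813 ± 0.0144 in phenanthroline libraries and 0.902 ± 0.0165 in untreated libraries. Its limma adjusted p was 0.0314, 0.0704 with the block, and 0.0707 to 0.168 over the 4 fits without a strain label.

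Among the genes of polymerase II only, the window of RPB4 held the nucleosome with the firmest change in the 31 windows. RPB4 (YJL140W, chromosome X, 150961 to 151626) encodes a stalk subunit that pairs with RPB7. Its promoter score was not called, at 0.680 ± 0.0550 in phenanthroline libraries and 0.744 ± 0.114 in untreated libraries, with overlap (limma adjusted p = 0.462). Its -1 nucleosome, 466 bp upstream, lies between RPB4 and the divergent gene YAK1, whose coding sequence begins 570 bp away. This nucleosome scored 0.571, 0.613, 0.544 and 0.612 in phenanthroline libraries against 0.857, 0.838, 0.888 and 0.849 in untreated libraries. The groups were far apart, and the limma adjusted p was 0.00193, 0.0230 with the strain block, and 0.0385, 0.0128, 0.0169 and 0.0223 without strain labels 1 to 4. Of the 22 nucleosomes called by score it was the only one to hold in all 4 of those fits. The depleted region downstream of it was 439, 439, 431 and 422 bp wide in phenanthroline libraries against 414, 407, 421 and 417 bp in untreated libraries. The adjusted p from limma was 0.0326, and 0.163, 0.123 and 0.0918 without strain labels 1, 2 and 4. Its +1 dyad lay at -38, -39, -37 and -38 bp in phenanthroline libraries against -50, -49, -46 and -43 bp in untreated libraries, 9 bp further downstream (limma adjusted p = 0.0197; 0.0559 with the block, and 0.133, 0.0785 and 0.0728 without strain labels 1, 2 and 4).

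RPB3 (chromosome IX, 312905 to 313861), which forms the assembly pair with RPB11, was also wider at the start. It had 323, 311, 315 and 317 bp in phenanthroline libraries against 296, 296, 308 and 297 bp in untreated libraries, with no overlap. With limma the adjusted p was 0.0224, and 0.134, 0.0747 and 0.122 without strain labels 1, 2 and 4. RPB2 (YOR151C, chromosome XV, 612997 to 616671), the second large subunit, was called in promoter score, with 0.864, 0.830, 0.773 and 0.747 in phenanthroline libraries against 0.920, 0.902, 0.883 and 0.923 in untreated libraries. Again no phenanthroline library reached an untreated one. The limma adjusted p was 0.0349, and it was 0.0600 with the strain block and 0.0704, 0.0809, 0.0893 and 0.153 without strain labels 1 to 4. RPB2 was also the gene whose row of nucleosomes was shorter from +1 to last, at 3629, 3627, 3637 and 3634 bp in phenanthroline libraries against 3669, 3684, 3651 and 3664 bp in untreated libraries. In limma the adjusted p was 0.0204, against 0.0687 with the block, and 0.131, 0.0609 and 0.111 without strain labels 1, 2 and 4. The last nucleosome, at 3593 bp, lay nearer the gene start with phenanthroline, by a difference of -37.75 bp (limma adjusted p = 0.0271; 0.114 with the block, 0.207 without strain label 1 and 0.149 without label 4). The +1 dyad lay at -53, -51, -53 and -50 bp in phenanthroline libraries and -50, -54, -46 and -47 bp in untreated libraries.

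RPO21 (YDL140C, chromosome IV, 205360 to 210561), the largest subunit of polymerase II, passed the threshold in none of the gene-level tests. Its gene-body score was 0.501, 0.495, 0.514 and 0.562 in phenanthroline libraries against 0.491, 0.446, 0.513 and 0.494 in untreated libraries, with overlap (limma adjusted p = 0.381). Its promoter score was 0.679, 0.667, 0.747 and 0.765 in phenanthroline libraries against 0.787, 0.747, 0.840 and 0.835 in untreated libraries, lower for each strain label, with a limma adjusted p of 0.0840, or 0.0375 with the strain block. The -1 nucleosome of RPO21, 189 bp upstream, was called lower, at 0.354, 0.434, 0.434 and 0.549 in phenanthroline libraries against 0.619, 0.616, 0.659 and 0.651 in untreated libraries. Limma gave an adjusted p of 0.0234, against 0.104, 0.0707 and 0.102 without strain labels 1, 2 and 3. The measured gap of RPO21, from the -1 to the +1 dyad, was 184 ± 4.55 bp in phenanthroline libraries and 177 ± 4.32 bp in untreated libraries. No wider gap lay in its upstream window, where further dyads sat at -344 and -517 bp, so a depleted region was not resolved there. The +1 dyad of RPO21 lay at -9.25 ± 2.06 bp and -8.25 ± 2.87 bp in phenanthroline and untreated libraries. RPB7, the stalk partner of RPB4, RPB9, which acts in the choice of start site, and RPB11 were called in no gene-level test. RPB7 had its +1 and last dyads 480.5 ± 3.32 bp apart in phenanthroline libraries and 488.5 ± 5.20 bp apart in untreated libraries, without overlap. The smallest limma adjusted p of RPB9 was 0.287 and that of RPB11 0.539. The promoter score had a negative difference at all 7 polymerase II genes, with RPB2 the one called, where 71.7% of the 5451 genes tested had a negative difference.

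Of the 10 genes of polymerase III only, 4 had a wider depleted region, against 23.9% of all genes. RPC31 (YNL151C, chromosome XIV, 347766 to 348521), part of the trimer that acts in initiation with RPC82 and RPC34, had 270, 258, 272 and 276 bp in phenanthroline libraries against 244, 232, 255 and 247 bp in untreated libraries. RPC53 (YDL150W, chromosome IV, 183343 to 184611), which forms with RPC37 a pair for termination and reinitiation, had 291, 293, 286 and 295 bp in phenanthroline libraries against 274, 272, 279 and 279 bp in untreated libraries. No phenanthroline library of RPC31 or RPC53 was as narrow as any untreated one. RPC37 (chromosome XI, 487770 to 488618) had 408, 403, 407 and 407 bp in phenanthroline libraries against 396, 399, 399 and 398 bp in untreated libraries. RPC82 (chromosome XVI, 917077 to 919041) had 324, 330, 328 and 324 bp in phenanthroline libraries against 319, 317, 321 and 319 bp in untreated libraries. At RPC53 the -1 nucleosome, at -337 bp, lies inside the divergent gene SAS10. Those of RPC37 and RPC82, at -389 and -302 bp, lie near the divergent genes DBP7 and QCR2, which begin 397 and 339 bp away. The widths of RPC53, RPC37 and RPC82 thus span a stretch shared with a divergent gene. The limma adjusted p was 0.0250 for RPC31, 0.0173 for RPC53, 0.0297 for RPC37 and 0.0453 for RPC82. Without strain label 1 these 4 values were 0.137, 0.116, 0.171 and 0.159, and without label 4 they were 0.122, 0.0963, 0.134 and 0.135. RPC34 differed most of all in the mean, by 29.75 bp, but its libraries were spread from 220 to 288 bp with phenanthroline and from 211 to 260 bp untreated, and its limma adjusted p was 0.199.

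Across the 9 wider genes of all classes, the limma adjusted p with the strain block was 0.0515 to 0.107, so that none passed, where the same fit called 36 of all 5263 genes. Without label 1 or label 4 none passed either, and without label 2 RPC31 alone passed, at 0.0457, and the other 8 had 0.0563 to 0.170. Without label 3, RPC37, RPB10 and RPC82 no longer passed, at 0.0518, 0.0576 and 0.0742. RPC53 also had its +1 nucleosome further downstream, at -47, -45, -53 and -44 bp in phenanthroline libraries against -62, -63, -56 and -56 bp in untreated libraries. Its limma adjusted p was 0.0249, against 0.0663 with the block, and 0.149, 0.100 and 0.113 without strain labels 1, 2 and 4. Its nucleosome at 776 bp lay 15.25 bp nearer the start (limma adjusted p = 0.0428, 0.118 with the block, and 0.0905 to 0.188 over the 4 fits without a strain label).

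RPO31 (YOR116C, chromosome XV, 539763 to 544145), the largest subunit of polymerase III, was the polymerase gene with a higher promoter score. It had 0.881, 0.868, 0.886 and 0.867 in phenanthroline libraries against 0.778, 0.833, 0.771 and 0.833 in untreated libraries, with no overlap. The adjusted p from limma was 0.0400, against 0.101 with the block, and 0.207, 0.0603, 0.137 and 0.0932 without strain labels 1 to 4. The nucleosome behind this lay 478 bp upstream, between RPO31 and its divergent neighbour RPT5. It scored 0.829, 0.771, 0.846 and 0.806 in phenanthroline libraries against 0.465, 0.659, 0.522 and 0.620 in untreated libraries. With limma the adjusted p was 0.0151, against 0.0446 with the block, and 0.0844, 0.0768 and 0.0632 without strain labels 1, 3 and 4. Its gene-body score was 0.634, 0.564, 0.621 and 0.636 in phenanthroline libraries against 0.606, 0.553, 0.581 and 0.594 in untreated libraries, higher for each strain label but overlapping (limma adjusted p = 0.396). Its +1 dyad lay at 137 ± 7.14 bp in phenanthroline libraries and 136 ± 1.41 bp in untreated libraries.

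RPC82 and RPC25 had the most negative differences in gene-body score, and neither passed the threshold. RPC82 had 0.747, 0.720, 0.748 and 0.732 in phenanthroline libraries against 0.762, 0.803, 0.813 and 0.812 in untreated libraries, without overlap (limma adjusted p = 0.0647). Its width component alone was called lower, at 0.643 ± 0.0106 in phenanthroline libraries and 0.713 ± 0.0161 in untreated libraries (limma adjusted p = 0.0326). RPC25, a stalk subunit, had 0.887, 0.862, 0.830 and 0.704 in phenanthroline libraries against 0.890, 0.851, 0.883 and 0.887 in untreated libraries, with its lowest value in the phenanthroline library of strain label 4 (limma adjusted p = 0.333). Within RPC82 a nucleosome at 1166 bp was higher, at 0.788 ± 0.0181 in phenanthroline libraries and 0.624 ± 0.0357 in untreated libraries. In limma the adjusted p was 0.00795, 0.0309 with the block, and 0.0738 without strain label 1. A nucleosome at 1684 bp was lower, at 0.562 ± 0.0493 and 0.709 ± 0.0451 in phenanthroline and untreated libraries. Limma gave an adjusted p of 0.0330, and 0.0965, 0.132 and 0.146 without strain labels 1, 3 and 4.

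RPC34 had the most negative difference in promoter score, from libraries that overlapped. Its promoter score was 0.607, 0.522, 0.504 and 0.483 in phenanthroline libraries against 0.674, 0.701, 0.646 and 0.560 in untreated libraries, lower for each strain label (limma adjusted p = 0.0628, or 0.0455 with the strain block). RPC17, the stalk partner of RPC25, had the most negative difference in +1 position after RPB5, at -10 ± 2.16 bp in phenanthroline libraries and -5.5 ± 3.11 bp in untreated libraries (limma adjusted p = 0.121). RPC11, a subunit for RNA cleavage and termination, had the most positive difference from +1 to last after RPC40, 9.75 bp, with a limma adjusted p of 0.212. The nucleosomes of RPC31 at 535 bp and of RPC17 at 169 bp scored higher, at 0.789 ± 0.0282 and 0.844 ± 0.0318 in phenanthroline libraries against 0.552 ± 0.0783 and 0.700 ± 0.0497 in untreated libraries (limma adjusted p = 0.0121 and 0.0268). Over the 4 fits without a strain label their adjusted p was 0.0224 to 0.0579 for RPC31, which passed without label 2, and 0.0580 to 0.111 for RPC17.

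The genes of the large subunits, which encode the catalytic pair of each enzyme, are the only polymerase genes over 3000 bp. They were set side by side as a group that was not among the planned ones. RPA190, RPA135, RPO21, RPB2, RPO31 and RET1, the second large subunit of polymerase III, all had a positive difference in gene-body score, with a median of 0.0453. Over all 466 genes longer than 3000 bp the median was 0.00205, with 246 positive and 220 negative differences and 2.58% called, 1.07% higher and 1.5% lower. RPA190 was the only one of the 6 to pass the threshold, and it had 0.0935 to 0.170 over the 4 fits without a strain label. RET1 (YOR207C, chromosome XV, 730008 to 733457) had 0.625, 0.678, 0.664 and 0.646 in phenanthroline libraries against 0.609, 0.585, 0.612 and 0.572 in untreated libraries, with no overlap and a limma adjusted p of 0.0772. RPB2 had 0.545, 0.512, 0.563 and 0.516 in phenanthroline libraries against 0.517, 0.450, 0.526 and 0.534 in untreated libraries, with overlap and a limma adjusted p of 0.484.

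Most of the positive differences lay in the interior of these genes. Beyond 500 bp from the start, 109 nucleosomes of the 6 genes had a median score of 0.596 in phenanthroline libraries and 0.540 in untreated libraries, with a median difference of 0.0533, 80 positive and 29 negative. Up to 500 bp from the start, 19 nucleosomes had a median difference of -0.00619, with 8 positive and 11 negative. Over all genes longer than 3000 bp the median difference was 0.00762 over 8881 nucleosomes beyond 500 bp and -0.0141 over 1397 nucleosomes up to 500 bp. The distance of 500 bp was chosen after the values were seen, and the difference between the 6 genes and other long genes was not tested. The height component followed the same sign in all 6 genes, with differences of 0.0603 at RPB2 to 0.142 at RPA135, and the width component did not, with differences from -0.0176 at RPO21 to 0.0254 at RET1.

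Single nucleosomes inside the 6 genes were called higher at 10 of 128 positions and lower at 0 by limma, with 3 of 128 lower at an unadjusted p under 0.05, against 6.65% of 10278 nucleosomes called in all genes over 3000 bp, 3.54% higher and 3.1% lower. RPA190 held 3 of the 10, at 567, 2539 and 3435 bp, RPA135 held 2, at 2175 and 3178 bp, RPB2 held 2, at 1176 and 3434 bp, RPO31 held 2, at 940 and 1089 bp, and RET1 held 1, at 803 bp. RPB2 at 1176 bp had the smallest adjusted p of these, with 0.804, 0.710, 0.835 and 0.857 in phenanthroline libraries against 0.575, 0.616, 0.556 and 0.576 in untreated libraries. Its limma adjusted p was 0.00947, 0.0370 with the block, and 0.0831, 0.0537 and 0.0605 without strain labels 1, 3 and 4. RPA135 at 2175 bp had 0.675, 0.684, 0.627 and 0.788 in phenanthroline libraries against 0.455, 0.563, 0.429 and 0.375 in untreated libraries. The adjusted p from limma was 0.0220, 0.0517 with the block, and 0.122, 0.0638 and 0.0857 without strain labels 1, 3 and 4. At both places the groups were clear of each other. With the block 3 of the 10 still passed, RPA190 at 2539 bp, RPA135 at 3178 bp and RPB2 at 1176 bp, and the other 7 had 0.0517 to 0.105. RPO21, the longest gene, had 30 coding nucleosomes called in all 8 libraries, 21 of them with a positive difference and 9 with a negative one. Without strain label 1 the adjusted p of the 10 nucleosomes was 0.0567 to 0.222. Without label 2 those of RPA190 at 2539 bp, RPA135 at 2175 bp and RPB2 at 1176 bp still passed and the other 7 had 0.0543 to 0.131. Without label 3 those of RPA190 at 3435 bp and RPO31 at 1089 bp passed and the others had 0.0537 to 0.135. Without label 4 that of RPO31 at 940 bp passed and the others had 0.0605 to 0.211.

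**Figure D4:**
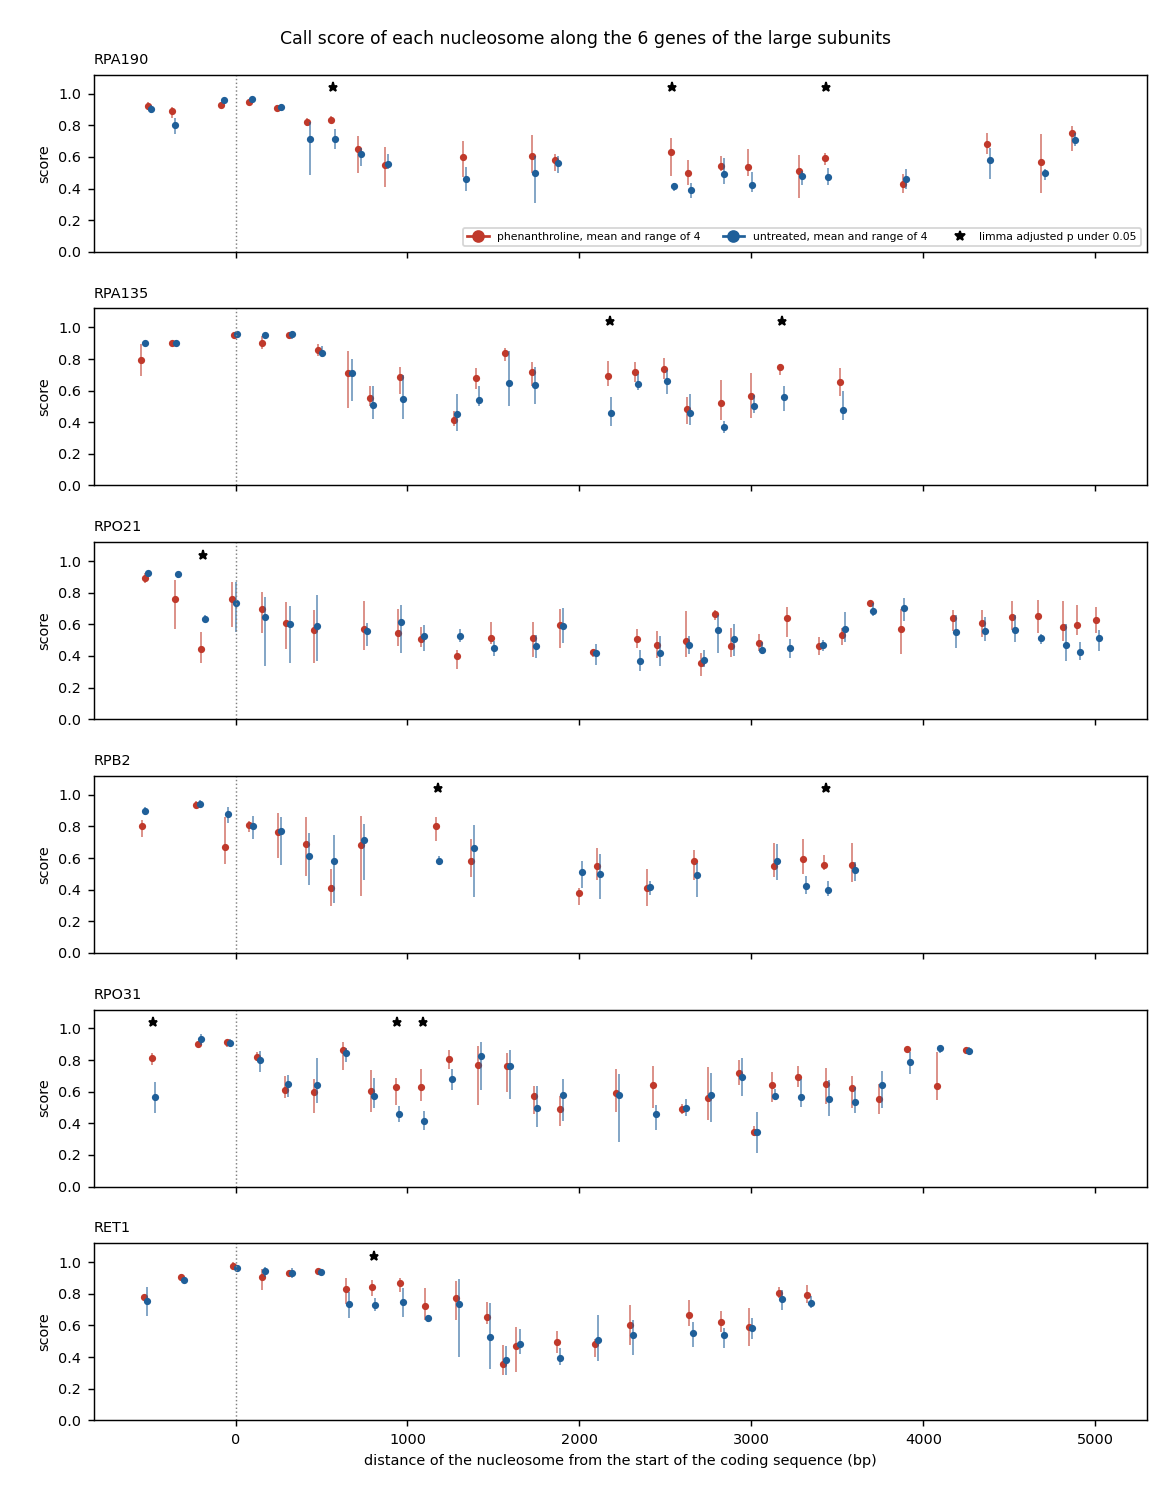
Score of each nucleosome called in all 8 libraries (0 to 1) by its distance from the start of the coding sequence in bp, for the 6 genes of the large subunits; dots are means of 4 libraries, vertical lines their range, with phenanthroline (red) drawn left of untreated (blue). Scores are highest near the start of RPA190, RPA135 and RET1 and lower in the interior, where the medians over the 6 genes were 0.596 with phenanthroline and 0.540 untreated beyond 500 bp, and the 10 starred coding nucleosomes are all higher with phenanthroline, while the starred nucleosome upstream of RPO21 is lower and that upstream of RPO31 higher.

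**Figure D5:**
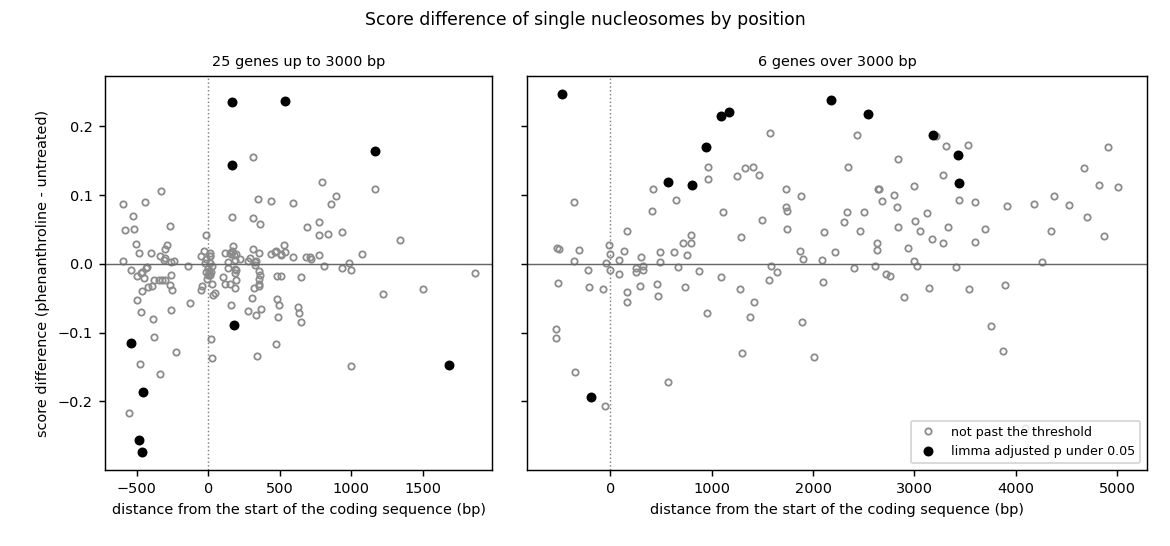
Difference in score, phenanthroline minus untreated, of each nucleosome called in all 8 libraries against its distance from the start of the coding sequence in bp, for the 25 genes up to 3000 bp (left) and the 6 genes over 3000 bp (right); filled dots passed the limma threshold. In the long genes all 10 filled dots inside the coding sequence lie above 0, and of those upstream that of RPO21 lies below 0 and that of RPO31 above. Over both panels 5 of the 6 filled dots upstream of gene starts lie below 0.

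The initiation, assembly and import factors of the polymerases, a list of 25 genes set beside the subunits, went through the same tests. Their median difference was 8.5 bp in width and -0.0457 in promoter score, against 7 bp and -0.0296 over all genes. Their depleted region was wider at 7 of 25 genes and narrower at 1, and their promoter score was lower at 5 of 24 and higher at 0, with 0 of 24 higher also at an unadjusted p under 0.05. Over all genes 23.9% of widths were called wider and 2.11% narrower, and 15.3% of promoter scores lower and 1.6% higher. The lower promoters were those of RRN9, in the upstream activating factor of polymerase I, TFC1, in the polymerase III factor TFIIIC, SPT15, which encodes the TATA-binding protein used by all 3 enzymes, MAF1, the repressor of polymerase III, and GPN2, a GTPase of polymerase assembly. TFC1 fell most, with 0.584, 0.602, 0.670 and 0.582 in phenanthroline libraries against 0.817, 0.808, 0.818 and 0.844 in untreated libraries. With limma the adjusted p was 0.00196, 0.0229 with the block, and 0.0346, 0.0149, 0.00473 and 0.0237 without strain labels 1 to 4. The call of TFC1 thus held in all 4 fits without a strain label, while those of RRN9 and GPN2 did not. They had 0.0890 and 0.0860 without label 1 and 0.0735 and 0.0740 without label 4. MAF1 had 0.0566 without label 1, 0.0502 without label 2 and 0.0690 without label 4, and SPT15 had 0.0569 without label 1.

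The wider regions in that list were at RRN5, RRN7 and RRN10, of polymerase I initiation, TFC7 and TFC8, of TFIIIC, and NPA3 and RBA50, of assembly and import, by 8.5 bp at RRN5 to 30 bp at TFC7. None of these 7 passed with the block, at 0.0578 to 0.0864, without strain label 1, at 0.128 to 0.171, or without label 4, at 0.0956 to 0.171, and without label 2 RRN7 alone passed, at 0.0457, while without label 3 RBA50 had 0.0618. BRF1, the TFIIB-like subunit of the polymerase III factor TFIIIB, was narrower, at 230, 234, 230 and 237 bp in phenanthroline libraries against 245, 247, 242 and 246 bp in untreated libraries. In limma the adjusted p was 0.0190, 0.0549 with the block, and 0.128, 0.0798 and 0.0925 without strain labels 1, 2 and 4. Its +1 dyad lay 7.75 bp further upstream, and the +1 of RRN5, TFC3, NPA3, GPN2 and RBA50 lay 5.25 to 15.5 bp further downstream, where 19.7% of all genes were called. These 6 had adjusted p of 0.0526 to 0.0769 with the block, 0.103 to 0.168 without label 1 and 0.0783 to 0.139 without label 4. Without label 2, TFC3 alone of these 6 passed, at 0.0303, and the others had 0.0606 to 0.119. Gene-body scores in the list were lower at 1 of 24 genes, against 3.65% of all genes. This was GPN2, with 0.692, 0.813, 0.786 and 0.779 in phenanthroline libraries against 0.881, 0.885, 0.842 and 0.913 in untreated libraries. Limma gave an adjusted p of 0.0338, 0.0387 with the block, and 0.158, 0.0505, 0.0624 and 0.146 without strain labels 1 to 4. The distance from +1 to last was shorter at TFC3 and TFC7 and longer at GPN3, of 23 genes, against 14.5% of all genes shorter and 0.757% longer. They had adjusted p of 0.131, 0.167 and 0.180 without label 1 and 0.125, 0.180 and 0.109 without label 4. Without label 2 the values were 0.0455, 0.156 and 0.134, and without label 3 GPN3 had 0.126. With the block TFC3 had 0.0359, TFC7 0.0899 and GPN3 0.102.

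All 31 subunit genes were tested for width and +1 position, and some not for the rest. RPC10, RPB10, RPB11, RPC17 and RPC11 held fewer than 3 calls in the coding sequence of some library and had no gene-body test. RPA14 and RPC10 held fewer than 2 calls upstream in some library and had no promoter test. RPO21, RPB4, RPC10 and RPB10 had no test of the distance from +1 to last.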

How the data were processed

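The deposited files list nucleosome calls per library from MNase-seq, in the columns of nucleR, per the file headers. The score of each call, which the authors' caller gave, is the mean of a width score and a height score (0 of 587498 calls with a class other than uncertain departed from this), and a call is well positioned where its width score is at least 0.6 and its height score at least 0.4. Coordinates are of sacCer3, per the submitters' processing notes. The aligner, the read filters, the version of nucleR and its thresholds were not given in the sources used here, and the depth of each library is unknown, so no counting interval is given. Reads were paired, of 75 bp each, per the labels' protocols.

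Offsets between libraries of the same treatment were measured by shifting dyads by up to 260 bp in windows of 20000 bp. They were subtracted beyond each insertion site, to a tolerance of 10 bp. The dyads of all 8 libraries were combined into 1 profile with a Gaussian kernel (SD 20 bp). The peaks of this profile, separated by 80 bp or more, gave 73026 nucleosomes, whatever the number of libraries with a call there. Calls were assigned to a nucleosome within 60 bp. The -1, +1 and last nucleosomes were chosen among those called in at least 4 libraries. Of the neighbouring nucleosomes whose second one was placed at most 150 bp upstream and at most 200 bp downstream of the start, the pair furthest apart was taken as -1 and +1. Gene starts and ends are those of the coding sequence in the RefSeq table of assembly R64. A gene needed at least 3 calls in the coding sequence, 2 upstream or 3 nucleosomes from +1 on in every library.

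Each measure was fitted over all features with limma 3.58.1 in R 4.3.3, phenanthroline against untreated, with Benjamini-Hochberg adjustment over all features and a threshold of 0.05. Libraries were grouped by the treatment label. The strain labels pair the libraries, so a fit with strain label as a block is an alternative, and the deviations of libraries of the same label had correlations of -0.00543 to 0.342 over 7 measures. They were 0.0811 to 0.342 in gene-body score, where phenanthroline label 1 was closer to untreated label 3, at 0.179, than to untreated label 1, at 0.0910. Other alternatives left out each strain label, centred scores, took another assignment distance or a minimum score. Steps were tested on simulated data. Python 3.11.15, numpy 2.4.6, pandas 2.3.3, scipy 1.17.1 and matplotlib 3.10.9 were used. The members, gene lists and tests were chosen with earlier results of these data known. Genes were named where they passed a test, were among the 2 largest differences in each direction, or were RPA190, RPO21 or RPO31. Promoter motifs were not analysed here.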

Additional observations from a re-analysis of the deposited data

Results flagged for a closer look

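Of 88 groups of 4 libraries tested for a library far from the other 3, 3 were past Dixon's critical value of 0.829, where chance gives about 1 in 20. All 3 concern the width of the depleted region. At RPO31, where a wider gap lay further upstream, the phenanthroline library of strain label 1 had 191 bp, against 175 to 176 bp in the other 3 phenanthroline libraries. At RPC19 the phenanthroline library of strain label 4 had 274 bp, against 267 to 268 bp in the other 3. At RPB3 the untreated library of strain label 3 had 308 bp, against 296 to 297 bp in the other 3 untreated libraries.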

How the results depend on the processing

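The cause of these changes was not tested. With the strain labels as a block, pairing the libraries of a label, calls over all genes were 600 for promoter scores in place of 919, 36 for widths in place of 1367, 17 for +1 positions in place of 1100, 133 for the distance from +1 to last in place of 726, and 0 for dyads in place of 768, and calls among the polymerase genes were 2 of 29, 0 of 31, 0 of 31, 0 of 27 and 0 of 312 for the same measures. The block changed the call of 20 of the 21 called polymerase results and added RPA135 in gene-body score and RPC34 and RPO21 in promoter score. Leaving out each strain label gave 3 to 274 gene-body calls over all genes and 0 to 1 among the polymerase genes, 203 to 731 and 0 to 2 for promoter scores, 15 to 1647 and 0 to 7 for widths, 18 to 1338 and 0 to 4 for +1 positions, 1 to 864 and 0 to 2 for the distance from +1 to last, 683 to 3617 and 1 to 17 for nucleosome scores, and 72 to 1082 and 0 to 3 for dyads. Scores centred on the library median gave 627 gene-body calls, 4 among the polymerase genes, and 498 promoter calls, 1 among the polymerase genes, and nucleosome calls of 2841 higher and 2186 lower, 56.5% higher in place of 34.3%. The height component alone gave 734 gene-body calls, 4 among the polymerase genes, and the width component alone 204, 1 among the polymerase genes. With calls assigned within 30 bp, 2 of the polymerase genes were called in the distance from +1 to last, and 1519 dyads were called, 5 of them in the polymerase windows. Leaving out regions beyond the insertion sites gave 1, 3, 6, 0, 11 and 1 calls among the polymerase genes for gene-body score, promoter score, width, distance from +1 to last, nucleosome score and dyad, with 18 genes left. Signs turned only where the difference was not called: RPO21 at -0.0176 and RPO31 at -0.0135 in gene-body score with the width component alone, RPO31 at -6.75 bp in +1 position with the call nearest the start, and 4 results over the fits without a strain label. Those ran from -2 to 1.67 bp for the width of RPA190, -1.33 to 0.333 bp for its +1 position, -2.67 to 6.17 bp for its distance from +1 to last, and -1.67 to 3.67 bp for the +1 position of RPO31. Over the 44 named results, 251 values kept direction and side of the threshold, 94 lost the threshold and 7 gained it. Depth is not given by the files and limits every value in a way that could not be measured.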
